A study of Mus musculus with 2 samples.

Results

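Droplets that carried RNA of T cells and of macrophages at once were described in 2 single-cell RNA libraries of tumour immune cells, 1 labelled responder and 1 labelled non-responder. Such a droplet had at least 3 UMIs (unique molecular identifiers, 1 per captured RNA molecule) of Cd3d, Cd3e and Cd3g together, and at least 1% of its UMIs came from C1qa, C1qb and C1qc. Cd3d, Cd3e and Cd3g encode the invariant chains of the T cell receptor complex, and the C1q genes encode a complement protein that tissue macrophages make. Of 6941 barcodes with at least 500 detected genes and at most 10% mitochondrial UMIs, 116 met the rule, 93 of 4376 in the responder library and 23 of 2565 in the non-responder library. They were selected on these Cd3 and C1q values alone. They are called mixed droplets here, because a droplet with both sets of genes can hold 2 free cells, 2 attached cells or 1 cell with the RNA of another, and the counts do not tell these apart.

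The cells were CD45+ leukocytes sorted from subcutaneous tumours of C57BL/6 mice. The tumours grew from 50000 injected cells of MC38-GFP, mouse adenocarcinoma cells marked with a green fluorescent protein, and all mice of both groups received 100 ug of an antibody against PD-1, a dose called sub-optimal, on days 12, 15, 18 and 22. The labels separate the groups by response alone, the number of mice behind each library is not given, and no untreated tumour was analysed here. With 1 library per group there was no replicate and no test, so every interval below is a 95% interval of counting error only, which treats UMIs as independent although UMIs of 1 droplet are not. The responder library held 45866561 UMIs in 4425 barcodes and the non-responder library 32032569 UMIs in 2580 barcodes, and 14 barcodes occurred in both.

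CD8 T cells recognise peptides on MHC class I, kill with granzymes and perforin, and secrete interferon gamma. Macrophages answer interferon gamma with more MHC class II and with CXCL9 and CXCL10, chemokines that draw activated T cells through the receptor CXCR3. T cells and macrophages touch each other in tumours, and macrophages also engulf dying cells, so both kinds of RNA can meet in 1 droplet in more than 1 way.

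The mixed droplets were 2.13% of the filtered barcodes in the responder library (exact Clopper-Pearson interval 1.72% to 2.60%) and 0.897% in the non-responder library (0.569% to 1.34%). Among barcodes with at least 3 Cd3 UMIs, 93 of 187 in the responder library also passed the C1q limit, which is 49.7% (42.4% to 57.1%). Of the 92 such non-responder barcodes 23 did so, which is 25% (16.6% to 35.1%). These shares come from the values that chose the droplets and are a description. At the C1q limit the 3 lowest members of the responder library had 1.05%, 1.07% and 1.07% C1q, and the 3 highest T barcodes outside it had 0.938%, 0.896% and 0.780%. The corresponding values of the non-responder library were 1.07%, 1.17% and 1.25% inside and 0.834%, 0.737% and 0.435% outside. Few barcodes lay close under the limit: 5 of the responder library and 2 of the non-responder library had between 0.5% and 1%. Just inside it, between 1% and 1.6%, lay 5 of the 93 responder members but 11 of the 23 non-responder members.

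**Figure D1:**
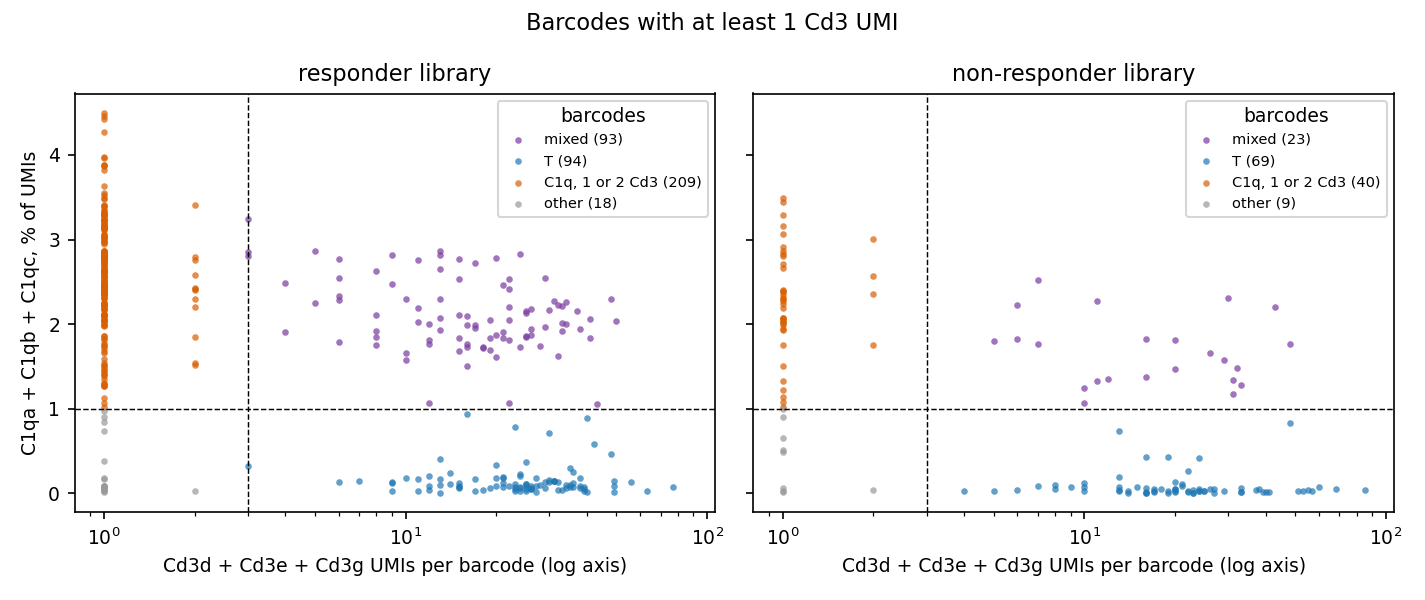
Each point is a barcode with at least 1 Cd3 UMI, with its Cd3 UMIs on a log axis against the share of its UMIs from C1q genes in percent, for the responder library (left) and the non-responder library (right). Dashed lines mark 3 UMIs and 1%, and the 93 and 23 mixed droplets stand above the 94 and 69 T barcodes.

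2 sets of barcodes from the same library served as references. The T barcodes had at least 3 Cd3 UMIs and under 1% C1q, 94 in the responder library and 69 in the non-responder library. The C1q barcodes had at least 1% C1q and no Cd3 UMI, 3662 in the responder library and 1979 in the non-responder library. The median share of C1q was 2.05% in mixed droplets, 0.09% in T barcodes and 2.64% in C1q barcodes of the responder library, and 1.66%, 0.04% and 2.24% in the same order in the non-responder library. A further 209 responder and 40 non-responder barcodes with C1q at 1% or more had 1 or 2 Cd3 UMIs and belonged to none of these sets.

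The T cell side of the mixed droplets was mostly CD8. In the responder library 90 of 93 mixed droplets had a UMI of Cd8a or Cd8b1, the chains of the CD8 coreceptor, against 88 of 94 T barcodes. In the non-responder library 20 of 23 mixed droplets had one, against 41 of 69 T barcodes. Cd8a alone was seen in 89 of the 93 responder mixed droplets (95.7%), in 92.6% of T barcodes and in 2.13% of C1q barcodes as background, at median depths of 13863, 3819 and 10202 UMIs. Cd4, the helper coreceptor, had a UMI in 3 of 93 mixed droplets and 3 of 94 T barcodes of the responder library, and in 2 of 23 mixed droplets and 12 of 69 T barcodes of the non-responder library. Foxp3, the master factor of regulatory T cells, was seen in 0 of 93 responder mixed droplets, which allows up to 3.23% of droplets with a UMI when 3 counts are taken as the limit, or 3.89% by the exact interval, against 4 of 94 T barcodes. It was seen in 2 of 23 non-responder mixed droplets (8.7%, interval 1.1% to 28.0%), against 15 of 69 T barcodes (21.7%). Ncr1, a receptor of natural killer cells, had no UMI in any mixed droplet, T barcode or C1q barcode of either library. Klrb1c, another gene of the natural killer list, did have UMIs. It was seen in 2 of 23 mixed droplets, 5 of 69 T barcodes and 7 of 1979 C1q barcodes of the non-responder library. In the responder library it was seen in 0 of 93 mixed droplets and 1 of 94 T barcodes.

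Defining markers of fibroblasts and tumour cells were at or near 0 in the mixed droplets. Summed over 9 fibroblast genes the level was 3.06 CPM (UMIs of a gene among all UMIs of the pooled barcodes, scaled to a common total) in the responder and 2.75 CPM in the non-responder mixed droplets, with Col1a1, Col1a2 and Pdgfra at 0 in both. 8 tumour epithelial genes summed to 10.7 CPM in the responder and 8.25 CPM in the non-responder mixed droplets, with Epcam, Krt8 and Krt18 at 0 in both. Other lists held some UMIs. The 14 dendritic cell genes summed to 61.9 CPM in responder mixed droplets, with Flt3 and Zbtb46 among 7 at 0, against 58.9 CPM in the plain sum. In non-responder mixed droplets they summed to 74.3 CPM, with 10 at 0, against 55.8 CPM in the plain sum. The 6 B cell genes with an entry summed to 54.3 CPM against 50.9 CPM in the plain sum in the responder library and to 33.0 against 18.4 CPM in the non-responder library, with Cd79a and Ms4a1 at 0 in both. The neutrophil genes summed to 32.1 against 60.6 CPM and to 77 against 123 CPM, and the endothelial genes to 28.3 against 28.0 CPM and to 24.8 against 10.8 CPM, in responder and then non-responder droplets. The part of these cells in the results was not tested.

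The mixed droplets held more RNA than either reference. Their mean was 14062 UMIs in the responder library, against 4731 in T barcodes and 10534 in C1q barcodes. The sum of those 2 means, called the plain sum below, was 15265 UMIs, so the mixed droplets held 92.1% of it. In the non-responder library they held 15810 UMIs on average, against 6627 in T barcodes and 12972 in C1q barcodes, and 80.7% of the plain sum of 19599. Single droplets ranged from 3544 to 24383 UMIs in the responder library and from 9946 to 30644 in the non-responder library. 82 of the 93 responder droplets lay above the median C1q barcode of their library and 28 above the plain sum, against 16 and 4 of the 23 non-responder droplets. The median mixed droplet had 2976 detected genes in the responder library and 3021 in the non-responder library.

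**Figure D2:**
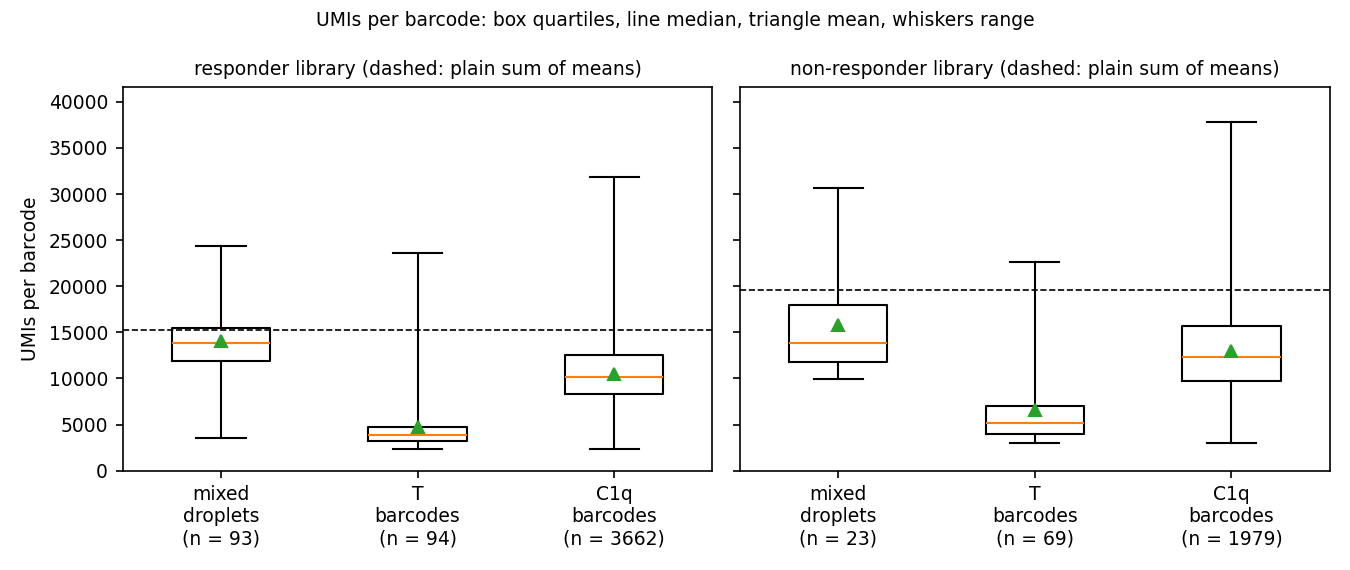
UMIs per barcode of mixed droplets, T barcodes and C1q barcodes in the responder library (left) and the non-responder library (right), with boxes at the quartiles, a line at the median, a triangle at the mean and whiskers over the range. The mean of the mixed droplets lies above both other means and below the dashed plain sum, at 14062 against 15265 UMIs on the left and 15810 against 19599 on the right.

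For every gene the level in the pooled mixed droplets was set against the plain sum: mean UMIs per T barcode plus mean UMIs per C1q barcode, scaled to CPM. A gene was compared where observed and expected UMIs together reached 50, and called where the ratio passed 1.5-fold in either direction. A gene counted as a T gene where its CPM was at least 4 times as high in T barcodes as in C1q barcodes, as a macrophage gene in the reverse case, and otherwise as shared. The 6 genes of the rule were left out. In the plain sum T cells gave 31.0% of the RNA in the responder library and 33.8% in the non-responder library. Fitting the weights of both references to the mixed profile by non-negative least squares gave 31.0% in the responder library and 34.2% in the non-responder library. Single droplets varied widely around this. Estimated from the T genes of each droplet relative to both references, which leaves it free to fall under 0, the T share had a median of 23.5% (range -2.76% to 75.8%) in the responder library and 35.2% (7.34% to 64.2%) in the non-responder library. The C1q limit that chose the droplets acts on this share as well, since C1q takes a smaller part of a droplet the more T cell RNA it holds.

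Most genes lay close to the plain sum. In the responder library 100 of 4379 genes were past 1.5-fold above it (2.28%) and 129 below it (2.95%). Of 434 macrophage genes, 15 lay above (3.46%) and 7 below (1.61%), with a median log2 ratio of 0.14 against 0.01 over all genes compared. Of 204 T genes, 5 lay above (2.45%, near the share of all genes) and 38 below (18.6%), with a median log2 ratio of -0.32. This downward shift of the T genes depended on the T share that was assumed. With the share set so that both gene classes had the same median ratio, at 23.2%, 8.33% of T genes lay above and 3.92% below. In the non-responder library 20 of 1714 genes lay above (1.17%) and 49 below (2.86%). There, 5 of 66 T genes were above (7.58%) and 7 below (10.6%), with a median log2 ratio of 0.01, and 4 of 184 macrophage genes were above (2.17%) and 8 below (4.35%), with a median of 0.06. Where 1 T barcode held most UMIs of a T gene, the ratio without that barcode is given beside it.

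**Figure D3:**
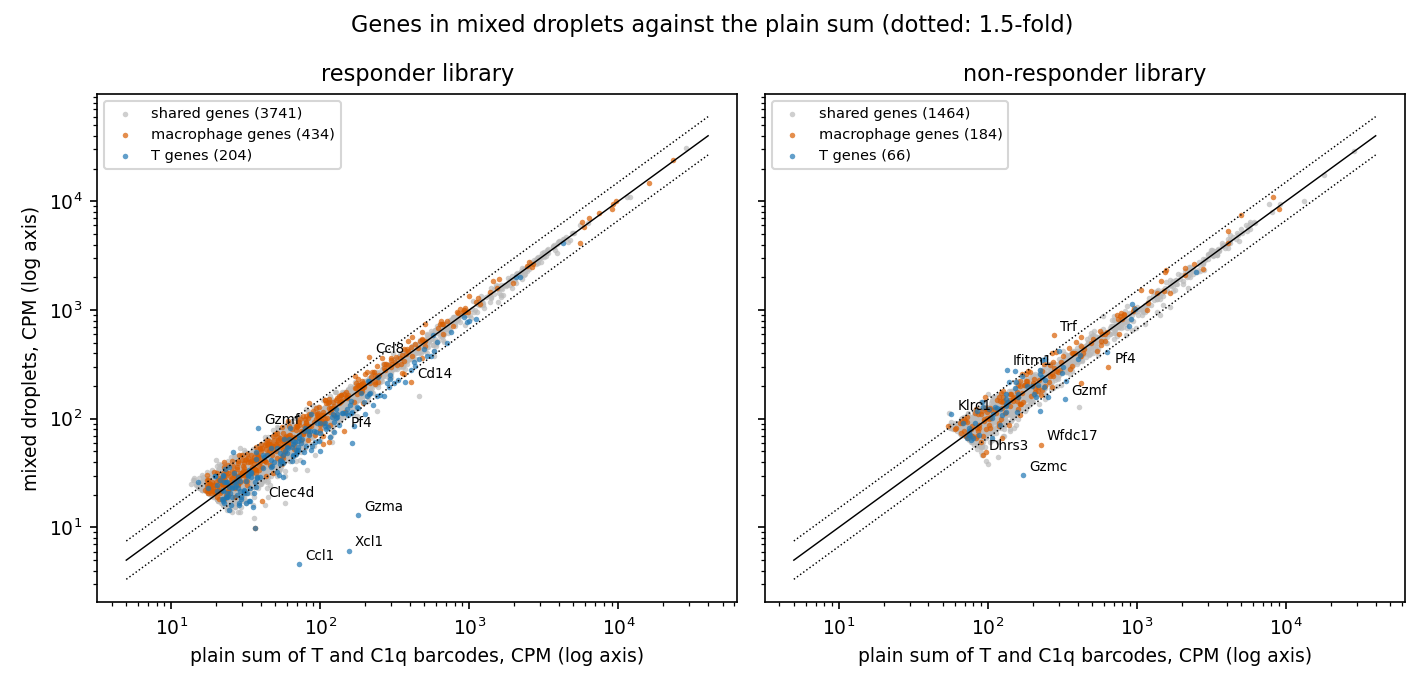
Each point is a gene, with its level in the pooled mixed droplets against the plain sum of T and C1q barcodes, both in CPM on log axes, for the responder library (left) and the non-responder library (right). The solid line marks equality and the dotted lines 1.5-fold. The points follow the solid line, with Xcl1, Ccl1 and Gzma far below it in the responder library and Gzmc and Wfdc17 in the non-responder library.

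Of 14 cytotoxic genes compared in the responder library 1 was above the plain sum and 5 below, with a median log2 ratio of -0.49, and with the balanced T share of 23.2% 1 was above and 1 below. Of 9 in the non-responder library 2 were above and 2 below, with a median of 0.31. Over all T genes, 2.45% were above and 18.6% below in the responder library, and 7.58% and 10.6% in the non-responder library. Over all genes compared these shares were 2.28% and 2.95% in the responder library, and 1.17% and 2.86% in the non-responder library. Nkg7, a granule protein of killer cells, had 2028 CPM in responder mixed droplets against 2198 CPM in the plain sum (ratio 0.92, interval 0.86 to 0.99). Ccl5, a chemokine of activated T cells and of macrophages, had 4132 against 4256 CPM (0.97, 0.92 to 1.02). Gzmb, a granzyme that triggers apoptosis in target cells, had 832 against 1113 CPM (0.75, 0.67 to 0.83), and a UMI in 77 of 93 mixed droplets and 78 of 94 T barcodes. The non-responder ratios were 1.24 for Nkg7 (1147 against 926 CPM), 0.80 for Ccl5 (707 against 888 CPM) and 0.94 for Gzmb (204 against 216 CPM).

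Gzmf, a granzyme of strongly activated T cells, was the T gene furthest above the plain sum in the responder library. It had 82.6 CPM in mixed droplets against 38.3 CPM in the plain sum (ratio 2.16, 1.35 to 3.47), with UMIs in 11 of 93 mixed droplets and 10 of 94 T barcodes. Of its mixed UMIs 25% came from 1 droplet, and the ratio was 1.63 without it. Of its T barcode UMIs 25.9% came from 1 barcode, and the ratio was 2.87 without that barcode. Gzmf lies at chr14:56205263-56211417 on the minus strand (GENCODE M21, GRCm38) beside close relatives, and reads that fit several of these granzyme genes may have been divided between them or dropped. In the non-responder library Gzmf had 151 CPM in mixed droplets against 331 CPM in the plain sum (0.46), but 61.5% of the UMIs of the T barcodes came from 1 barcode, and without it the ratio was 1.16. In turn 45.5% of the UMIs of the mixed droplets came from 1 droplet, and the ratio was 0.26 without that droplet and 0.33 with CD8-bearing barcodes alone. Nrgn, a calmodulin-binding protein best known from neurons, was the other responder T gene named by the rule, with 48.9 against 25.8 CPM (1.90, 1.06 to 3.44).

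The widest deficits of T genes rested on few T barcodes. Xcl1, a chemokine for cross-presenting dendritic cells, had 6.12 CPM in responder mixed droplets against 156 CPM in the plain sum (0.04), and 83.4% of its T barcode UMIs came from 1 barcode. Without that barcode the ratio was 0.23. Ccl1, a T cell chemokine, had a ratio of 0.06, with 88.5% of its T barcode UMIs in 1 barcode and a ratio of 0.53 without it. Gzma, another granzyme, had 13 against 179 CPM (0.07), with 51.0% in 1 barcode and 0.15 without it, and a UMI in 4 of 93 mixed droplets and 8 of 94 T barcodes. Gm156 had 9.94 against 36.4 CPM (0.27). In the non-responder library Gzmc had a ratio of 0.18, with 77.1% of its T barcode UMIs in 1 barcode and 0.71 without it.

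Several activation and inhibitory receptors of T cells were below the plain sum in the responder mixed droplets, a distance that for most of them depended on the assumed T share. Tnfrsf4, the costimulatory receptor OX40, had 59.6 CPM against 163 CPM in the plain sum (0.37, 0.25 to 0.52), and a UMI in 34.4% of mixed droplets and 46.8% of T barcodes. Ctla4, an inhibitory receptor, had 85.6 against 169 CPM (0.51, 0.37 to 0.70). Ifng, which encodes interferon gamma, had 109 against 198 CPM (0.55, 0.41 to 0.73) and a UMI in 38 of 93 mixed droplets and 50 of 94 T barcodes. Tnfrsf9, the costimulatory receptor 4-1BB, had 219 against 373 CPM (0.59, 0.48 to 0.72). Pdcd1, which encodes PD-1 itself, stayed within 1.5-fold at 213 against 280 CPM (0.76, 0.61 to 0.95), and so did Cxcr6, a receptor for the macrophage chemokine CXCL16, at 307 against 431 CPM (0.71). Of 14 T cell activation genes compared 0 were above and 6 below, with a median log2 ratio of -0.51, and of 17 inhibitory and exhaustion genes 0 were above and 5 below, with a median of -0.28. Of 16 T cell receptor and coreceptor genes compared 0 were above and 3 below, with a median of -0.30, close to the -0.32 of all T genes. For all these lists the shares below stand beside 18.6% of all T genes and 2.95% of all genes compared. With the balanced T share, Ctla4 (0.68), Ifng (0.73) and Tnfrsf9 (0.77) were within 1.5-fold and Tnfrsf4 (0.49) was not. The counts below the plain sum were then 4 of 14 activation genes, 0 of 17 inhibitory genes and 0 of 16 receptor genes.

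Both subunits of a killer lectin receptor were above the plain sum in the non-responder mixed droplets. Klrd1, which encodes CD94, had 272 CPM against 152 CPM in the plain sum (1.79, 1.26 to 2.51). Klrc1, which encodes NKG2A, the partner of CD94 in an inhibitory receptor, had 110 against 57.0 CPM (1.93, 1.1 to 3.33). Cxcr6 had 217 against 139 CPM (1.56, 1.07 to 2.26), and Ifitm1, an interferon-induced membrane protein, 283 against 134 CPM (2.12, 1.5 to 2.97) with UMIs in 10 of 23 mixed droplets. Without the droplet richest in each gene the ratios were 1.58 for Klrd1, 1.73 for Klrc1 and 1.65 for Ifitm1. For Cxcr6 the ratio fell under 1.5-fold without its richest droplet, so the rule for names did not take it. Tnfrsf4 had 118 against 224 CPM (0.53) and Tnfrsf18, which encodes the costimulatory receptor GITR, 160 against 252 CPM (0.63). The share of T barcodes without CD8 moves with these values, since 28 of 69 non-responder T barcodes and 3 of 23 mixed droplets lacked it. With CD8-bearing barcodes alone on both sides the ratios were 1.34 for Klrd1, 1.44 for Klrc1, 1.65 for Ifitm1, 0.73 for Tnfrsf4 and 1.21 for Tnfrsf18. Ifng was too sparse to be compared there, with 30 UMIs at 82.5 CPM against 37.8 CPM in the plain sum (2.18, 1.12 to 4.19).

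On the macrophage side the MHC class II genes lay close to the plain sum in the responder library and somewhat above it in the non-responder library. All 8 MHC class II genes compared in the responder library had a ratio over 1, none of them past 1.5-fold, with a median log2 ratio of 0.13, about the 0.14 of all macrophage genes. With the balanced T share 3 of the 8 were over 1, and H2-Ab1 (0.95) and Cd74 (0.94) were under it. H2-Ab1, a chain of the MHC class II molecule I-A, had 10043 CPM in mixed droplets against 9685 CPM in the plain sum (1.04, 1.01 to 1.06), and Cd74, the invariant chain that escorts MHC class II, 24108 against 23395 CPM (1.03). All 6 compared in the non-responder library also had a ratio over 1 and none was past 1.5-fold, with a median of 0.47. There H2-Ab1 had 2327 against 1564 CPM (1.49, 1.37 to 1.62) and Cd74 7461 against 4998 CPM (1.49). Without the non-responder droplet richest in each the ratios were 1.19 for H2-Ab1 and 1.31 for Cd74. Of 16 MHC class I genes compared in the responder library 1 was above and 0 below and 5 had a ratio over 1, with a median log2 ratio of -0.07. Of 14 in the non-responder library 0 were above and 0 below and 7 had a ratio over 1, with a median of 0.01.

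Of the macrophage chemokines, Ccl8 was above the plain sum in the responder mixed droplets and Cxcl9 came close to 1.5-fold. Ccl8, a monocyte chemoattractant at chr11:82115185-82116799 on the plus strand, had 369 CPM against 212 CPM in the plain sum (1.74, 1.52 to 1.97) and against 297 CPM in C1q barcodes alone. It had a UMI in 46 of 93 mixed droplets (49.5%, 38.9% to 60.0%) and in 31.9% of C1q barcodes. With each barcode thinned to 3000 UMIs, these shares were 26.9% (18.2% to 37.1%) and 19.7%. That interval includes the share of C1q barcodes. Equal total UMIs leave a mixed droplet fewer macrophage UMIs, since part of its RNA comes from T cells. The thinned shares therefore cannot decide whether the share was higher at equal macrophage depth. Cxcl9, at chr5:92321347-92328079 on the minus strand, had 742 CPM against 507 CPM in the plain sum (1.46, 1.33 to 1.61) and 681 CPM in C1q barcodes. It had a UMI in 79.6% of mixed droplets and 75.2% of C1q barcodes, or 58.1% and 58.2% after thinning, with the same limit. Cxcl10 had 320 against 347 CPM (0.92) and Cxcl16 954 against 935 CPM (1.02). Of 20 interferon gamma genes compared 0 were above and 0 below, with a median log2 ratio of -0.05.

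In the non-responder mixed droplets Cxcl9 and Ccl8 were almost missing. Cxcl9 had 1 UMI in 23 mixed droplets, 2.75 CPM, against 44.9 CPM in the plain sum (0.06, 0.0014 to 0.37). Ccl8 had 2 UMIs, 5.50 CPM, against 38.0 CPM (0.14, 0.015 to 0.56). Both had too few UMIs for the limit of 50. A UMI of Cxcl9 was seen in 1 of 23 mixed droplets (4.3%, 0.1% to 21.9%) and 14.5% of C1q barcodes, which lies inside that interval, so a lower share was not detectable at this number of droplets. Ccl12, a monocyte chemoattractant, had 2214 CPM against 1535 CPM (1.44, 1.32 to 1.57) and 1.15 without the droplet richest in it.

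Some macrophage genes were low in the responder mixed droplets, but as a class they were seldom so. Of 434 macrophage genes 7 were below the plain sum (1.61%), against 2.95% of all genes compared. Cd14, the coreceptor for lipopolysaccharide, had 217 CPM against 407 CPM in the plain sum (0.53, 0.46 to 0.62). Pf4, a chemokine of platelets and of some macrophages, had 77.2 against 145 CPM (0.53, 0.41 to 0.69). Clec4d, a C-type lectin receptor, had 17.6 against 40.4 CPM (0.44), and Ly6i, a surface protein of the Ly6 family, 9.94 against 36.3 CPM (0.27). Hmox1, the haem-degrading enzyme, had 58.1 against 104 CPM (0.56, 0.41 to 0.75). Among shared genes, Arg1, the enzyme that breaks down arginine, had 117 against 240 CPM (0.49, 0.39 to 0.60), and Fabp5, a fatty acid carrier, 16.8 against 57.8 CPM (0.29, 0.16 to 0.51).

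Some of these genes were low in the non-responder mixed droplets too. Pf4 had 297 CPM against 644 CPM (0.46, 0.37 to 0.57), with 43.5% of its mixed UMIs in 1 droplet and a ratio of 0.27 without it. Arg1 had 215 against 425 CPM (0.50, 0.38 to 0.66), Hmox1 129 against 411 CPM (0.31, 0.22 to 0.45) and Fabp5 77 against 140 CPM (0.55, 0.33 to 0.86). Of 12 genes of alternative activation, lipids and matrix compared in each library, 0 were above and 4 below in the responder library and 0 above and 3 below in the non-responder library, with median log2 ratios of -0.33 and -0.41. Over all genes compared, 2.95% were below in the responder library and 2.86% in the non-responder library. Cd14 was not low in the non-responder library, at 558 against 424 CPM (1.32, 1.09 to 1.57). Wfdc17, a small secreted inhibitor of inflammation, was the lowest named macrophage gene, with 57.8 against 226 CPM (0.26, 0.15 to 0.41), while it had 205 against 198 CPM (1.03) in the responder library. Trf, the iron carrier transferrin, was the highest, with 586 against 279 CPM (2.10, 1.74 to 2.51) and UMIs in 22 of 23 mixed droplets. Its ratio was 1.63 without the droplet richest in it, and 0.75 in the responder library.

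**Figure D4:**
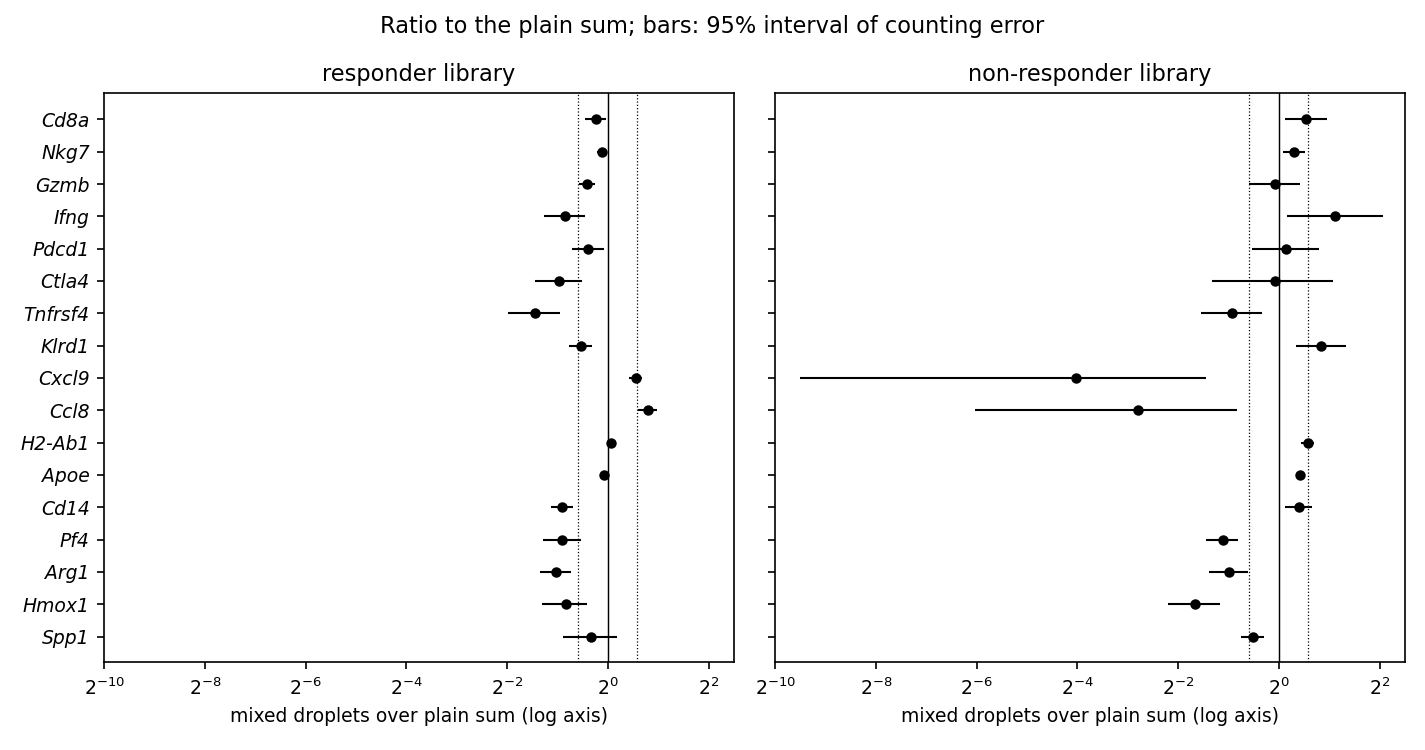
Ratio of mixed droplets to the plain sum on a log axis for 17 T cell and macrophage genes, in the responder library (left) and the non-responder library (right), with bars for the 95% interval of counting error and dotted lines at 1.5-fold. Tnfrsf4, Pf4, Arg1 and Hmox1 lie below the lower dotted line in both panels, and Cxcl9 and Ccl8 lie right of equality in the responder panel and left of it in the non-responder panel, where they had 1 and 2 UMIs.

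Genes past 1.5-fold of the higher of both references were few. No weighting of the 2 pooled profiles gives a level above both, but each profile is a mean over many barcodes. Droplets that hold cells above that mean in a gene could exceed both, which was not tested. The lower bounds given below are for each gene alone and make no allowance for the number of genes compared. They were 20 of 4379 in the responder library (0.457%), all of the shared class, and 4 of 1714 in the non-responder library (0.233%). Of these, 2 in the responder library and 1 in the non-responder library met the conditions set for naming. Nlrc5, the transactivator of MHC class I genes, at chr8:94434356-94527272 on the plus strand, had 42.1 CPM in responder mixed droplets against 13.5 CPM in T barcodes and 22.8 CPM in C1q barcodes, 1.85 times the higher of them (lower bound 1.08), with UMIs in 40 of 93 droplets. 2510039O18Rik had 28.3 CPM, 1.62 times the higher (lower bound 1.01). Ptpre, a tyrosine phosphatase, had 113 CPM in non-responder mixed droplets against 28.4 CPM in T barcodes and 68.3 CPM in C1q barcodes, 1.65 times the higher (lower bound 1.13).

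A few early response genes were above the plain sum in the responder mixed droplets. Jun, an immediate early transcription factor, had 139 CPM against 83.8 CPM in the plain sum (1.66, 1.30 to 2.07), Jund of the same family 53.5 against 28.8 CPM (1.86, 1.12 to 3.01), and the heat shock gene Hsph1 38.2 against 20.9 CPM (1.83, 1.01 to 3.17). Of 18 genes of the immediate early and dissociation stress list compared in the responder library 3 were above and 0 below. Over all genes compared there, 2.28% were above. The list had 14 genes with a ratio over 1 and a median log2 ratio of 0.09. That median was 0.01 over all genes and 0.14 over macrophage genes. Of 16 in the non-responder library 0 were above and 0 below, with a median of 0.03. Of the other responder macrophage genes named by the rule, the clock gene Per1 had 46.6 against 28.6 CPM (1.63) and Ogfrl1 39.8 against 22.7 CPM (1.75). F11r, the junctional adhesion molecule A, was above the plain sum in the non-responder library at 157 against 95.7 CPM (1.64, 1.14 to 2.27). Of 22 proliferation genes compared in the responder library 0 were above and 0 below, and of 12 in the non-responder library 0 were above and 1 below. Of the genes for engulfing dying cells, 0 of 9 in the responder library and 0 of 5 in the non-responder library were above or below, with Axl, a receptor for apoptotic cells, at 151 against 115 CPM (1.31) in the responder library. Of 21 lysosome genes in the responder library 0 were above and 0 below, and of 19 in the non-responder library 0 were above and 1 below.

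The mixed droplets of the 2 libraries were also set against each other, beside the same ratio between the plain sums. A gene was compared where the CPM of both groups together, at the UMI total of the smaller group, came to at least 50 UMIs. It could therefore pass through 1 group alone. Of 1723 genes compared, 199 were past 1.5-fold higher in responder than in non-responder mixed droplets (11.5%) and 150 lower (8.71%), and for 1590 the log2 ratio lay within 1.5-fold of that between the plain sums, most of them genes that were called in neither comparison. Of the 199 higher genes 109 were also called higher between the plain sums, and of the 150 lower genes 67 were also called lower. All 6 MHC class II genes were higher in the responder mixed droplets, with a median log2 ratio of 1.89 against 2.28 between the plain sums. H2-Ab1 was at 10043 CPM in responder and 2327 CPM in non-responder mixed droplets (log2 2.11, 2.01 to 2.21). Of 12 interferon gamma genes 11 were higher and 0 lower, with a median of 1.59 against 1.53. Gbp2, a guanylate-binding protein, was at 445 CPM in responder and 41.2 CPM in non-responder mixed droplets (log2 3.43, 2.70 to 4.28), against a log2 of 2.08 between the plain sums. The alternative activation, lipid and matrix genes ran the other way, with 8 of 10 lower, 0 higher and a median of -1.0 in both comparisons. Spp1, which encodes osteopontin, was at 62.7 CPM in responder and 685 CPM in non-responder mixed droplets (log2 -3.45).

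Cxcl9 had the largest log2 ratio named here, at 742 CPM in responder and 2.75 CPM in non-responder mixed droplets (log2 8.08, 5.59 to 13.38, from 970 and 1 UMIs), against 3.50 between the plain sums. Ccl8 followed with log2 6.07 (4.21 to 9.12, from 482 and 2 UMIs) against 2.48. Both genes passed the limit of this comparison through their responder UMIs alone. Each had a UMI in 1 of 23 non-responder mixed droplets (0.1% to 21.9%), against 14.5% (Cxcl9) and 14.0% (Ccl8) of C1q barcodes. These shares lie inside that interval, so the 2 log2 ratios and their distance from the plain sums are a description only. Wfdc17 was higher in responder mixed droplets (log2 1.83) while the plain sums differed by -0.19, and Cd14 was lower (log2 -1.36) while the plain sums differed by -0.06. The 62 genes that were T genes in both libraries had a median log2 ratio of 0.02, against 0.42 between the plain sums. Of these, 15 were higher and 10 lower, and 39 lay within 1.5-fold of the plain-sum ratio. Ifng was at 109 CPM in responder and 82.5 CPM in non-responder mixed droplets (log2 0.41, -0.17 to 1.03), an interval that includes no difference, against 2.39 between the plain sums. The share of CD8 among the non-responder T barcodes, given above, differed from that of the mixed droplets, and its part in these T gene values was not tested.

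**Figure D5:**
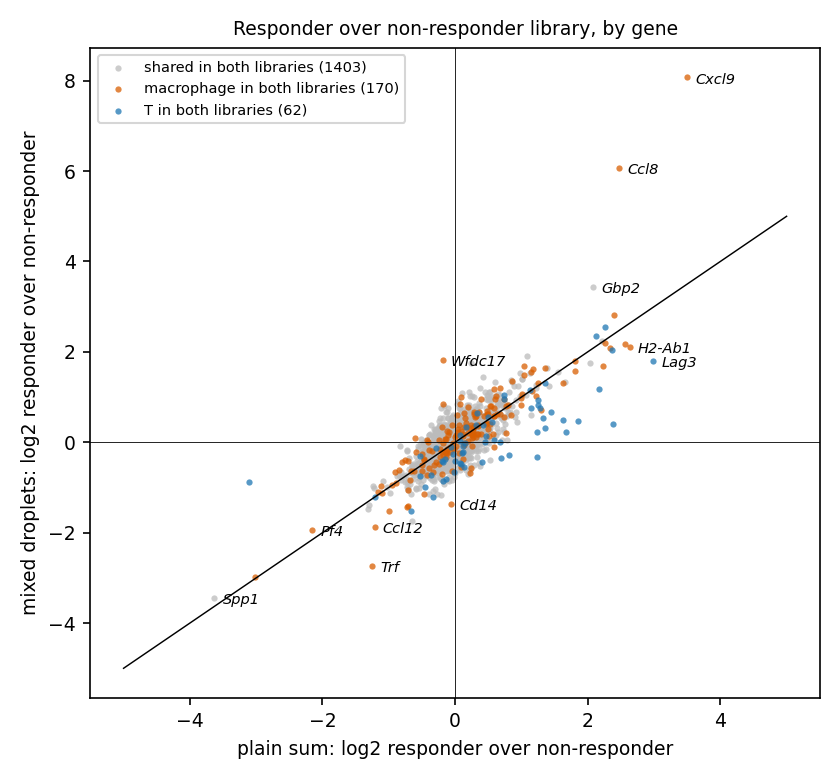
Each point is a gene, with the log2 ratio of responder over non-responder in mixed droplets against the same ratio between the plain sums, in log2 units. Genes of different class in the 2 libraries are not drawn, and the line marks equality. Cxcl9 and Ccl8 lie far above the line, Trf and Cd14 below it, and many T genes, Lag3 among them, lie under it on the right.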

How the data were processed

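The authors deposited filtered matrices of UMI counts per gene and barcode for both libraries, made with the 10x Chromium 3' version 3 kit, per the labels' protocols. The submitters' processing notes name Cell Ranger 1.1.0 and the builds mm10 and GRCm38, but no annotation release. All values were whole numbers. Gene symbols are those of the files, and coordinates came from GENCODE M21 by Ensembl identifier (27722 of 27998 found). From the counts, Python 3.11.15 with numpy 2.4.6, scipy 1.17.1 and pandas 2.3.3 gave pooled CPM, the plain sum, the ratios and exact Poisson intervals, which combine the bounds of the 3 counts behind a ratio and cover counting error only. Shares have exact Clopper-Pearson intervals. The filters left out 49 responder and 15 non-responder barcodes. No doublet caller was run, since pairs of cells were the subject. Thinning to 3000 UMIs left out 73 responder and 2 non-responder C1q barcodes. The procedure was tested on simulated mixtures drawn from the same 2 reference profiles. In these the T share did not vary between droplets and no gene had its UMIs concentrated in single droplets. They therefore do not show how the procedure handles either feature.

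The droplets and the 29 gene lists were chosen with earlier results of these data known, so nothing here is independent of them. 8 of 471 listed genes had no entry. Per library and gene class, the rule for names took up to 8 genes above the plain sum (interval over 1, UMIs in at least 5 droplets, still past 1.5-fold without the richest droplet) and up to 4 below (interval under 1), plus up to 6 above both references. Further genes are examples from the lists.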

Additional observations from a re-analysis of the deposited data

Results flagged for a closer look

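The 3 genes flagged here lay past 1.5-fold above the plain sum in 1 library and past 1.5-fold below it in the other. Other genes named above also lay on opposite sides, but within 1.5-fold in 1 library or with too few UMIs to be compared. With 1 library per group the difference was not tested. Gzmf had a ratio of 2.16 in the responder library and 0.457 in the non-responder library. The responder value was 1.63 without the mixed droplet that held 25% of the mixed UMIs. Without the T barcode that held 25.9% of the T barcode UMIs it was 2.87. The non-responder value was 1.16 without the T barcode that held 61.5% of the T barcode UMIs. It was 0.26 without the mixed droplet that held 45.5% of the mixed UMIs, and 0.33 with CD8-bearing barcodes alone. Ifitm1 had a ratio of 0.355 in the responder library, at 163 CPM against 459 CPM, and 2.12 in the non-responder library. Its C1q barcodes differed as well, at 519 CPM in the responder and 45.7 CPM in the non-responder library. Klrc1 had a ratio of 0.659 in the responder library and 1.93 in the non-responder library, or 1.44 there with CD8-bearing barcodes alone. The responder value lay close to the 1.5-fold limit, and the downward shift of T genes in that library depended on the assumed T share.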

How the results depend on the processing

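No paired analysis was possible because each group has 1 library and the labels give no replicate numbers. The share of mixed droplets was 1.17% (responder) and 0.195% (non-responder) with C1q at 2% or more, and 1.41% in the responder library after thinning to 3000 UMIs. The shares with a C1q limit of 0.5%, 5 Cd3 UMIs or 1000 genes stayed inside the intervals of the main shares. T genes above the plain sum were 0% in both libraries against the higher of the references and with 200 UMIs required, 0.746% (responder) and 18.2% (non-responder) with members at 2% C1q and 5 Cd3 UMIs, 0.490% and 1.52% at 2-fold, and 8.33% (responder) with the balanced T share. T genes below were 31.9% (responder) and 22.7% (non-responder) without scaling, 2.94% and 3.03% at 2-fold, 27.0% (responder) with means of CPM per barcode, 3.92% (responder) with the balanced share, and 27.3% (non-responder) with the stricter members. Macrophage genes above were 1.38% (responder) and 0.543% (non-responder) without scaling, 0% and 0.543% against the higher reference, 12.3% and 6.5% with 20 UMIs required, 0% and 0.543% at 2-fold, 1.51% (responder) with 200 UMIs, 1.38% (responder) with the balanced share, and 16.7% and 5.62% (non-responder) with the stricter members and with CD8-bearing barcodes. Macrophage genes below were 0.461% (responder) and 1.09% (non-responder) at 2-fold, and in the non-responder library 15.2% without scaling and 1.56% with classes at 10-fold. For most of these the cause was not tested. A higher fold or a smaller set of genes changes a count by its construction, and the stricter non-responder members were few. Genes below the higher reference were not counted, since a mixture lies below it by construction. Fitted weights, a T reference under 0.5% C1q and C1q barcodes with up to 2 Cd3 UMIs kept every share inside its interval. The balanced share and the last of these were chosen after seeing the data. The 30 named values were recomputed under the 8 settings that can change a ratio, and 3 of them also against the higher reference. Of these 243 values 230 stayed past 1.5-fold, 11 did not and 2 changed direction. At 2-fold 13 of the 30 were still past the limit. The 2 values that changed direction were Pf4 at 1.16 in the non-responder library with the stricter members and Tnfrsf18 at 1.21 there with CD8-bearing barcodes. The 23 non-responder droplets limit what can be compared, at 1714 genes against 4379 in the responder library.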
